A study of Mus musculus with 6 samples.

Results

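Aminoacyl-tRNA synthetases attach each amino acid to its tRNA, the step that lets the ribosome read the genetic code. The genes described here were all rows of the count table whose Ensembl identifier carries a protein-coding synthetase symbol in GENCODE M21: a single capital letter followed by ars, with an optional 1 or 2, or Eprs, Farsa or Farsb. This gave 37 of 35932 genes, 20 for enzymes of the cytosol and 17 for enzymes of the mitochondrion. The rule uses names alone and no measured value. The cells were mouse bone marrow blasts of a myeloid leukemia that carries MLL-AF9, which joins Kmt2a (MLL) to Mllt3 (AF9), and the genotype label MLL-AF9+ was the same in all libraries. The 3 sensitive libraries came from blasts labelled chemotherapy-sensitive with vehicle treatment. The 3 resistant libraries came from blasts labelled chemotherapy-resistant with cytarabine plus doxorubicin, a nucleoside analog and an anthracycline. The label of resistance and the drug treatment therefore cannot be told apart, and the labels give no strain, age, dose, time of harvest or clone. Nothing in them says that replicates came from separate animals, so a p-value here reflects how much these libraries vary, possibly for technical reasons only.

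Nuclear genes encode both sets of enzymes. Most amino acids have a cytosolic enzyme and a separate mitochondrial one, whose symbol ends in 2; Gars (glycine) and Kars (lysine) each serve both compartments from a single gene, and Eprs carries the glutamate and proline activities on 1 chain. Phenylalanine uses the subunits Farsa and Farsb in the cytosol and the single-chain Fars2 in mitochondria. Mitochondria charge glutamine tRNA indirectly, through Ears2 and an amidotransferase. Part of the cytosolic enzymes sit in the multisynthetase complex, held by scaffold proteins. Transcription of many cytosolic synthetase genes is known to respond to ATF4, the transcription factor of the amino acid response, and to MYC.

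Library totals were 22206341 to 31856009 counts, and all 37 synthetase genes passed the filter on low counts, with 223 to 90387 counts per gene and library. The blast markers Kit, Cd34, Mpo, Cd33, Itgam, Flt3, Hoxa9 and Meis1 summed to 3290 to 3790 CPM (library-scaled counts, TMM-normalised) in sensitive and 3060 to 3540 in resistant libraries. Of these 8, Cd34, Cd33 and Hoxa9 were higher, Kit, Itgam and Flt3 (log2 fold change -0.86) lower, and Mpo and Meis1 did not pass. Markers of other marrow cells moved with the groups. Erythroid markers summed to 46.7 to 81.7 CPM in sensitive and 1.1 to 2.96 CPM in resistant libraries, with 0 of 7 tested markers higher and 6 lower. Neutrophil markers summed to 135 to 156 CPM against 30.1 to 48.4 CPM, with 0 of 8 higher and 7 lower. Megakaryocyte markers summed to 9.49 to 10.6 CPM against 5.89 to 7.03 CPM, with Itga2b lower and Gp9 not passing. No marker of the erythroid or neutrophil list was at 0 in all libraries. T and NK cell markers summed to at most 0.745 CPM in any library, B cell markers to 37.8 to 41.1 CPM, almost all from Cd79b while Ms4a1 and Pax5 had a mean of 0 in resistant libraries, and stromal and endothelial markers to at most 1.33 CPM. The part of these cells in the results below was not tested, and in bulk RNA fewer cells of a type and less RNA per cell cannot be told apart.

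The comparison asks how resistant blasts differ from sensitive ones. The synthetase genes changed little in either compartment. Of 37 genes, 7 passed as higher and 6 as lower in the resistant group with an adjusted p under 0.05, and 24 did not pass (edgeR quasi-likelihood test, Benjamini-Hochberg adjustment over 13414 genes). The share called, 35.1%, compares with 39.2% of all genes tested, of which 18.5% were higher and 20.8% lower. Changes were small: 0 of 37 genes differed by more than 1.5-fold, against 18% of all genes tested. That background was not matched to the family for level. The log2 fold change (resistant over sensitive) was highest for Qars, at 0.40. Simulated data had the depth and spread of these libraries, but only 200 of 13414 genes were changed, against 39.2% called here. In the simulations the test recovered 67.6% of genes changed 1.5-fold and 24.4% of those given a smaller change. The adjustment depends on how many genes change, so these shares do not give the recovery in the data itself. A gene that did not pass is not shown to be equal.

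**Figure D1:**
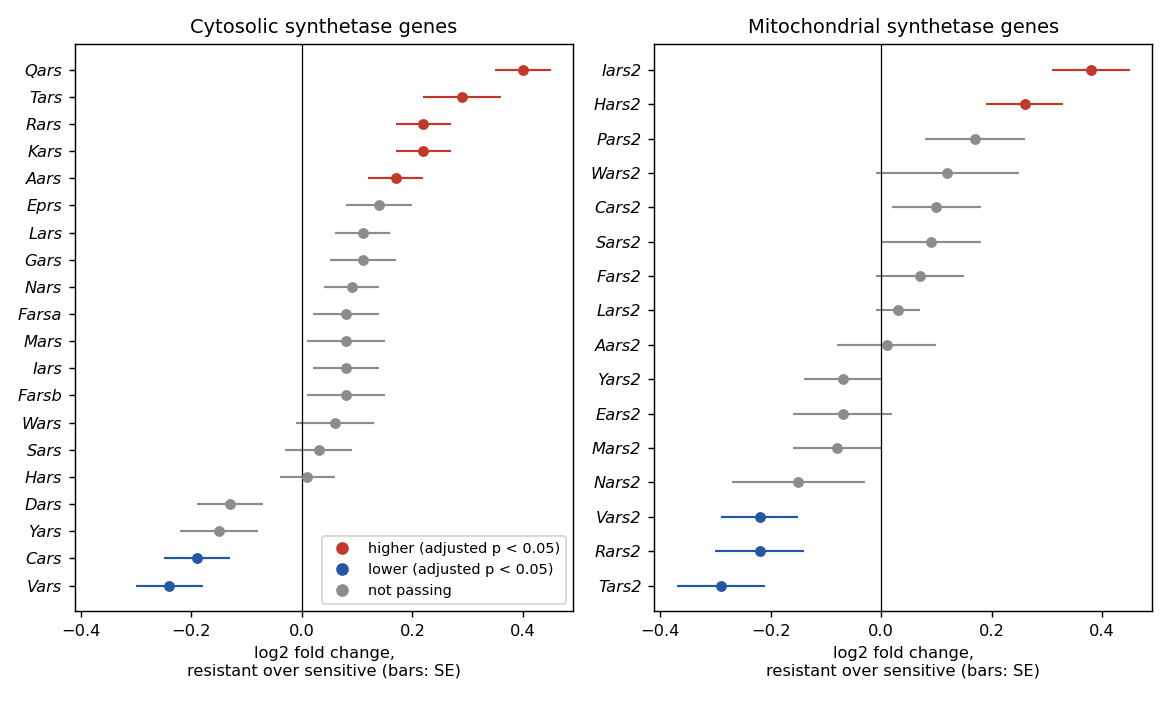
Log2 fold change (x axis, resistant over sensitive, bars are SE from the edgeR fit) of 36 of the 37 synthetase genes, cytosolic on the left and mitochondrial on the right, colored by the call at an adjusted p of 0.05. Among the genes drawn, Qars at 0.40 is highest and Tars2 at -0.29 lowest.

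Promoter sequences show which members carry the composite element to which ATF4 binds with a C/EBP partner such as the product of Cebpg. RefSeq promoters of build GRCm38.p6, from 250 bases before to 50 after each start, were matched for 27 of 37 members (28 promoters). Among cytosolic genes, Cars, Hars, Lars, Nars, Rars, Vars and Wars had no matched promoter and were not searched. Mitochondrial genes not searched for the same reason included Hars2 and Pars2. Vars and Cars are the cytosolic genes that passed as lower, so no lower cytosolic gene could be found with a motif here. The element was searched as TGATGNAA on both strands. It was in 5 of 28 member promoters (17.9%) and in 297 of 12406 promoters of tested genes (2.39%). All 5 belong to cytosolic enzymes, 2 of them higher (Tars and Aars) and 3 not passing (Gars, Iars and Yars). Those of Tars (higher) and of Gars, Iars and Yars (not passing) are shown as 30 bases each with the match in capitals, 5′ to 3′ on the strand of the gene.
Tars: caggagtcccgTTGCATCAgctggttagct
Gars: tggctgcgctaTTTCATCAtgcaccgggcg
Iars: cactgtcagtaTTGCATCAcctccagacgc
Yars: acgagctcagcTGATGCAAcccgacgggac

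The windows are chr15:11399655-11399684 (minus strand) for Tars and chr6:55037960-55037989 (plus strand) for Gars. Those of Iars and Yars are chr13:49682126-49682155 and chr4:129189895-129189924, both on the plus strand. The match begins 30 bases before the start in Gars and 15 before in Tars, and at base 8 of the transcript in Iars and base 4 in Yars. In Tars and Iars it reads TTGCATCA, the same 8 bases; Yars has them on the other strand, as TGATGCAA, and Gars has TTTCATCA. Log2 fold changes of these 4 genes were 0.29, 0.11, 0.08 and -0.15 for Tars, Gars, Iars and Yars. Aars, not shown above, has TTGCATCA from 112 bases before the start and TTTCATCA from base 10 of the transcript (log2 fold change 0.17). Genes with TTGCATCA on either strand were found among those past the test (Tars and Aars) and among those not passing (Iars and Yars).

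The E-box CACGTG, to which MYC and MAX bind, was in 5 of 28 member promoters (17.9%) against 9.89% of promoters of tested genes. The 5 were those of Tars, Iars, Aars, Farsb and Ears2. The consensus motif of NRF1, a regulator of nuclear genes for mitochondria, was also in 5 of 28, against 9.82%: those of Iars2, Kars, Tars, Farsb and Mars2. A match describes letters in the window and does not show binding, and a member without one is described only for this window.

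Cytosolic enzymes held 5 higher and 2 lower members of 20, with 13 not passing and a median log2 fold change of 0.08, against -0.01 over all genes tested. The 35% called compares with 39.2% of all genes tested, of which 18.5% were higher and 20.8% lower. The higher genes were Qars (glutamine), Tars (threonine), Rars (arginine), Kars (lysine) and Aars (alanine). The lower ones were Vars (valine) and Cars (cysteine). In 10 of 20 genes the libraries of the groups did not overlap (50%), against 52.4% of all genes tested. The summed level of the 20 genes was 3330, 3210 and 3200 CPM in sensitive and 3330, 3550 and 3420 CPM in resistant libraries, so the lowest resistant library met the highest sensitive one.

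Qars, whose product also takes part in the multisynthetase complex, had the largest rise of the family. Its level was 186, 181 and 187 CPM in sensitive and 242, 244 and 246 CPM in resistant libraries. The groups lay well apart with little spread within either, and Qars rose 1.32-fold (log2 fold change 0.40 ± 0.05 SE, n = 3 per group, edgeR adjusted p = 0.000116).

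Tars, the cytosolic threonine enzyme, was at 132, 117 and 119 CPM in sensitive and 145, 160 and 142 CPM in resistant libraries. Sensitive library 1 was the nearest to the resistant group, without reaching it. The rise of Tars was 0.29 ± 0.07 as a log2 fold change (edgeR adjusted p = 0.00708).

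Rars was at 125, 122 and 122 CPM in sensitive and 147, 146 and 137 CPM in resistant libraries. Kars was at 210, 207 and 215 CPM against 238, 241 and 256 CPM. All resistant libraries lay above all sensitive ones for both genes, which belong to the multisynthetase complex and charge the basic amino acids arginine and lysine. Each rose by 0.22 ± 0.05 (edgeR adjusted p = 0.00748 for Rars and 0.0077 for Kars); the call of Kars was lost without sensitive library 2 (adjusted p = 0.0513).

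Aars, which edits mischarged serine and glycine besides charging alanine, was at 252, 237 and 243 CPM in sensitive and 266, 278 and 281 CPM in resistant libraries. The groups did not overlap, with the gap between sensitive library 1 and resistant library 1 the narrow point. Aars rose by 0.17 ± 0.05 (edgeR adjusted p = 0.0232), a call lost without sensitive library 2 (0.125), sensitive library 3 (0.0828) or resistant library 3 (0.051).

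Vars fell, with 359, 376 and 381 CPM in sensitive and 294, 331 and 324 CPM in resistant libraries. Every resistant library lay below every sensitive one, resistant library 1 lowest. The log2 fold change was -0.24 ± 0.06 (edgeR adjusted p = 0.00926), and the call held in all 14 alternative fits.

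Cars had the lowest level per length among cytosolic enzymes and was the other lower gene. It was at 56.7, 53.5 and 53.6 CPM in sensitive and 47.7, 49.5 and 46.2 CPM in resistant libraries, without overlap. The fitted difference of Cars was -0.19 ± 0.06 in log2 units (edgeR adjusted p = 0.0323). This call was lost in 6 of 14 alternative fits, among them the fits without sensitive library 1 (0.0979), 2 (0.0846) or 3 (0.0712) and without resistant library 1 (0.0571) or 3 (0.0779).

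**Figure D2:**
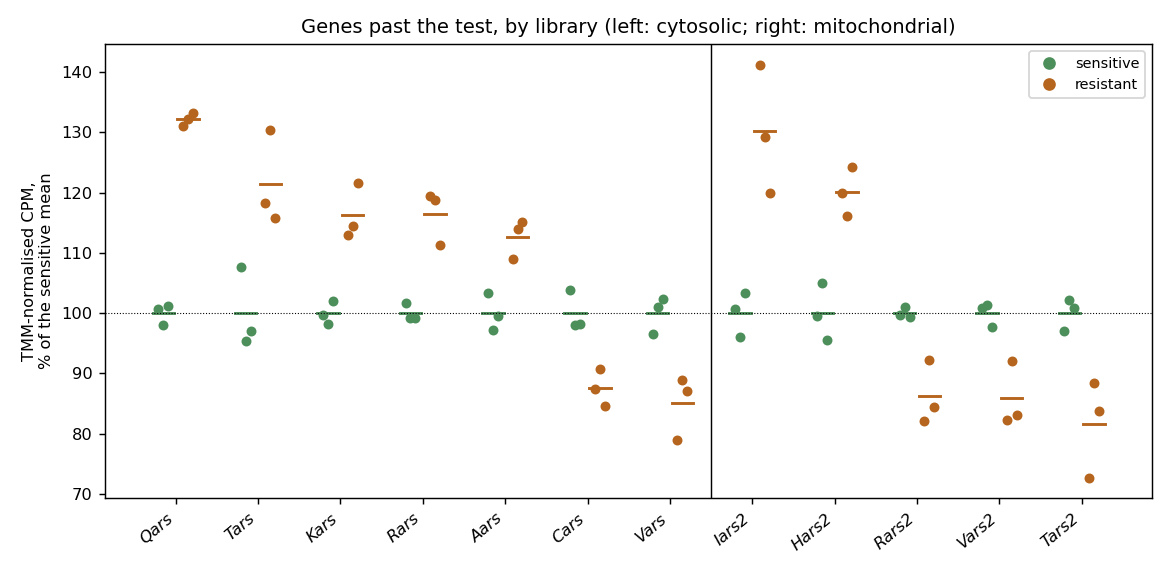
TMM-normalised CPM in each library as percent of the sensitive mean (y axis) for 12 of the 13 genes past the test, cytosolic left of the line and mitochondrial right of it; points are libraries and short lines group means. For none of the 12 genes drawn do the groups overlap, but these genes were drawn because they passed the test. Over all 37 synthetase genes the groups did not overlap in 17 (45.9%), against 52.4% of all genes tested.

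The other 13 cytosolic genes did not pass. Nearest to the threshold were Eprs and Dars, both of the multisynthetase complex. Eprs was at 261, 244 and 243 CPM in sensitive and 259, 284 and 280 CPM in resistant libraries (0.14 ± 0.06, edgeR adjusted p = 0.0828). Resistant library 1 lay within the sensitive range, and Eprs passed in the fit without that library (0.0313). Dars, the aspartate enzyme, was at 229, 221 and 203 CPM against 197, 199 and 199 CPM, the resistant values just below the sensitive ones (-0.13 ± 0.06, edgeR adjusted p = 0.0859). It passed without sensitive library 3 (0.048) and with scaling by library totals (0.0319).

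Among the rest, Lars (leucine) and Gars had log2 fold changes of 0.11 each, Nars (asparagine) 0.09, and Farsa, Farsb, Iars (isoleucine) and Mars (methionine) 0.08 each. Wars (tryptophan) was at 0.06, Sars (serine, which also starts the selenocysteine pathway) at 0.03, Hars (histidine) at 0.01 and Yars (tyrosine) at -0.15. Gars passed without sensitive library 1 (edgeR adjusted p = 0.0445) and Farsb without resistant library 3 (0.041). The signs of Hars and Sars turned with scaling by library totals, to -0.02 and -0.00.

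The 8 complex members can be set beside the 12 cytosolic enzymes outside it, a textbook grouping made with the values known. In the complex 3 genes were higher (Qars, Rars and Kars), 0 lower and 5 not passing, with a median of 0.12. Outside it 2 were higher (Tars and Aars), 2 lower (Vars and Cars) and 8 not passing, with a median of 0.07. The summed level of the complex members was 1430, 1370 and 1360 CPM in sensitive and 1500, 1560 and 1530 CPM in resistant libraries. That of the others was 1910, 1840 and 1840 CPM against 1830, 1990 and 1890 CPM. The sums of the complex members did not overlap between the groups and those of the others did; the difference between these sets was not tested. The shares called, 37.5% and 33.3%, were both near the 39.2% of all genes.

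Of the scaffold genes of that complex, Aimp1 (0.18 ± 0.06, edgeR adjusted p = 0.0421) and Aimp2 (0.24 ± 0.08, 0.0296) were higher, and Eef1e1, which encodes AIMP3, did not pass (0.13 ± 0.09, 0.272). Aimp2 was at 35.9, 31.9 and 36.9 CPM in sensitive and 41.5, 42.5 and 39.6 CPM in resistant libraries. Its groups did not overlap, as was the case for Aimp1. Both calls depended on the fit, with the edgeR adjusted p of each fit that lost them in parentheses. That of Aimp1 was lost in 6 of 14 alternatives: with library totals (0.084), with no low-count filter (0.0643), and without sensitive library 2 (0.149) or 3 (0.158) or resistant library 1 (0.104) or 3 (0.079). That of Aimp2 was lost in 5: with library totals (0.0572) and without sensitive library 1 (0.0531) or 2 (0.158) or resistant library 1 (0.064) or 2 (0.0686).

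Grouped by the fold of their catalytic site, the 9 cytosolic class I enzymes had 2 higher and 2 lower members and the 10 of class II had 3 higher and 0 lower, with medians of 0.08 and 0.09; Eprs, which has both kinds of site, was left out. The shares called, 44.4% and 30%, lay on either side of the 39.2% of all genes tested, and the difference between the classes was not tested. In mitochondria each class had 1 higher and 2 lower members (33.3% and 37.5% called).

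Mitochondrial enzymes held 2 higher and 4 lower members of 17, with 11 not passing and a median log2 fold change of 0.01. The share called was 35.3%, against 39.2% of all genes tested. Iars2 (isoleucine) and Hars2 (histidine) were higher; those lower included Tars2 (threonine), Vars2 (valine) and Rars2 (arginine). The libraries of the groups did not overlap in 7 of 17 genes (41.2%), against 52.4% of all genes tested. Without Lars2, which is described apart below, the summed level of the other 16 genes was 503, 513 and 513 CPM in sensitive and 522, 539 and 506 CPM in resistant libraries, overlapping.

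Iars2 was at 109, 104 and 112 CPM in sensitive and 153, 140 and 130 CPM in resistant libraries. Resistant library 1 stood highest, and even the lowest resistant library was above the sensitive range. Iars2 rose by 0.38 ± 0.07 (edgeR adjusted p = 0.00152), also in all 14 alternatives. It shares 22.9% of its annotated exon bases with Rab3gap2 on the opposite strand, and whether the counting used strand is not given; Rab3gap2 itself was at -0.13 ± 0.08 (edgeR adjusted p = 0.217).

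Hars2 was at 33, 34.8 and 31.7 CPM in sensitive and 39.8, 38.5 and 41.2 CPM in resistant libraries. The groups did not overlap and Hars2 rose by 0.26 ± 0.07 (edgeR adjusted p = 0.0122); the call was lost without sensitive library 3 (0.0628). Hars and Hars2 are neighbors on opposite strands and share 195 annotated exon bases.

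Tars2 was at 58.5, 61.5 and 60.7 CPM in sensitive and 43.8, 53.3 and 50.5 CPM in resistant libraries, resistant library 1 being lowest. Its fitted difference was -0.29 ± 0.08 in log2 units (edgeR adjusted p = 0.0129), and without sensitive library 2 the call was lost (0.0567).

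Vars2 was at 35.9, 36.1 and 34.8 CPM in sensitive and 29.3, 32.8 and 29.6 CPM in resistant libraries. Rars2 was at 29.4, 29.8 and 29.3 CPM against 24.2, 27.2 and 24.9 CPM. In both genes resistant library 2 was the highest of its group, still below all sensitive libraries. Each had a log2 fold change of -0.22 (SE 0.07 for Vars2 and 0.08 for Rars2; edgeR adjusted p = 0.0336 and 0.0428), and these were the members just inside the threshold. Both calls held in only 7 of 14 alternatives. They were lost when any 1 sensitive library, or resistant library 1 or 3, was left out, with edgeR adjusted p up to 0.119 for Vars2 and 0.129 for Rars2. With no low-count filter they were lost too (edgeR adjusted p = 0.0598 for Vars2 and 0.0872 for Rars2). The same held with DESeq2 (DESeq2 adjusted p = 0.0518 for Vars2 and 0.0787 for Rars2).

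The mitochondrial genes that did not pass were Pars2 (proline, 0.17), Wars2 (tryptophan, 0.12), Cars2 (cysteine, 0.10), Sars2 (serine, 0.09), Fars2 (phenylalanine, 0.07), Lars2 (leucine, 0.03) and Aars2 (alanine, 0.01) above 0. Below 0 were Ears2 (glutamate, -0.07), Yars2 (tyrosine, -0.07), Mars2 (methionine, -0.08) and Nars2 (asparagine, -0.15). Their edgeR adjusted p ran from 0.165 for Pars2 to 0.92 for Aars2. Aars2 turned sign with scaling by library totals (-0.02), and Lars2 did so too (-0.00).

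Levels can be compared between genes per length, here as CPM per kb of the GENCODE M21 transcript with the longest coding sequence. Cytosolic enzymes had a median of 51 CPM per kb, from 15.9 for Cars to 106 for Farsa. The 16 mitochondrial enzymes other than Lars2 had a median of 8.53, from 1.76 for Mars2 to 22.8 for Iars2 and Tars2, so the cytosolic median was 5.98 times the mitochondrial one. Farsa had 183, 190 and 193 CPM in sensitive and 188, 215 and 197 CPM in resistant libraries, with overlap. Its partner subunit Farsb had a level of 44.7 CPM per kb. Kars (104), Nars (99.1) and Dars (95.7) followed Farsa closely. Mars2 had 20.1, 20.5 and 20.7 CPM in sensitive and 18.1, 20.6 and 19.3 CPM in resistant libraries, also with overlap. Its transcript of 11294 bases enters its level per length.

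Lars2 stood apart. Its counts gave 2920, 2700 and 2750 CPM in sensitive and 2850, 2800 and 2910 CPM in resistant libraries, overlapping (0.03 ± 0.04, edgeR adjusted p = 0.601). This is 725 CPM per kb, 31.8 times the next mitochondrial enzyme, and 83.9% to 85.3% of the summed CPM of all mitochondrial members. After the coding end (base 2905), the Lars2 transcript carries a stretch of 72 bases, 3278 to 3349, that matches the noncoding gene Gm15564 on chromosome 16 at 98.6% identity. Gm15564 had 974 to 1377 counts per library. How the counting treated shared reads is not given, so the level of Lars2 is uncertain as a measure of leucine enzyme mRNA. Sequence shared with other genes was found in 6 of 37 members, and the longest stretch was in Iars. There 1656 bases within the coding part match the pseudogene Gm4849 on chromosome 1 at 96% identity. Gm4849 has no row of its own in the counts, and its part in the level of Iars was not tested.

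**Figure D3:**
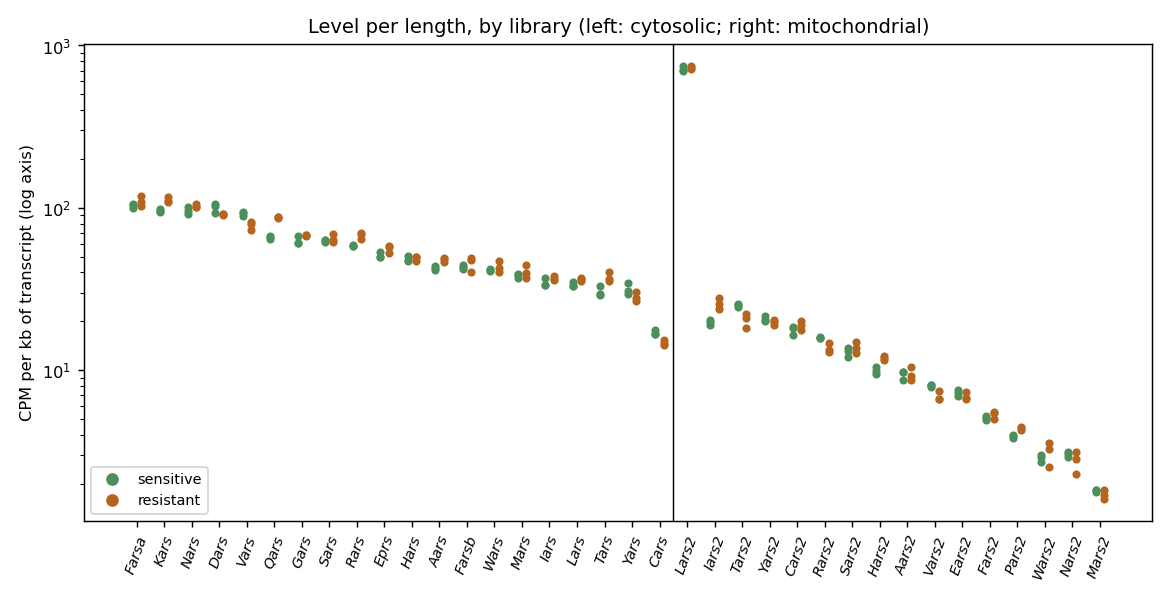
Level of 36 of the 37 genes as CPM per kb of transcript (y axis, log scale) in each library, ordered by mean within cytosolic (left) and mitochondrial (right) enzymes. Lars2 at a mean of 725 lies far above the other 15 mitochondrial genes drawn, which reach at most 22.8.

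The ratio of the counts of the enzymes for the same amino acid within a library does not depend on scaling. For threonine, Tars over Tars2 was 2.25, 1.9 and 1.95 in sensitive and 3.31, 3 and 2.82 in resistant libraries. The cytosolic gene passed as higher and the mitochondrial one as lower, and the ratios did not overlap. For arginine, Rars over Rars2 was 4.24, 4.08 and 4.17 in sensitive and 6.09, 5.37 and 5.49 in resistant libraries, again with the cytosolic gene higher, the mitochondrial one lower and no overlap. The call of Rars2 held in only 7 of 14 alternative fits. Threonine and arginine gave the 2 of 18 pairs whose members passed in opposite directions. They were picked out after the values were seen, so no test is given. Ratios did not overlap between the groups in 10 of 18 pairs, so among these pairs lack of overlap does not set these 2 apart. The share for other pairs of genes was not computed. Eprs (with Ears2 and with Pars2) and Fars2 (with Farsa and with Farsb) each enter more than a single pair.

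For isoleucine the ratio went the other way: Iars over Iars2 was 1.5, 1.42 and 1.32 against 1.06, 1.2 and 1.22. Cysteine and histidine also had lower ratios in resistant libraries, without overlap. Cars over Cars2 had a mean of 1.62 in sensitive and 1.33 in resistant libraries, and Hars over Hars2 of 2.91 and 2.45. Valine was the 1 pair in which both genes passed as lower, and Vars over Vars2 overlapped, at 10, 10.4 and 10.9 against 10, 10.1 and 10.9. In 10 of 18 pairs neither gene passed.

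**Figure D4:**
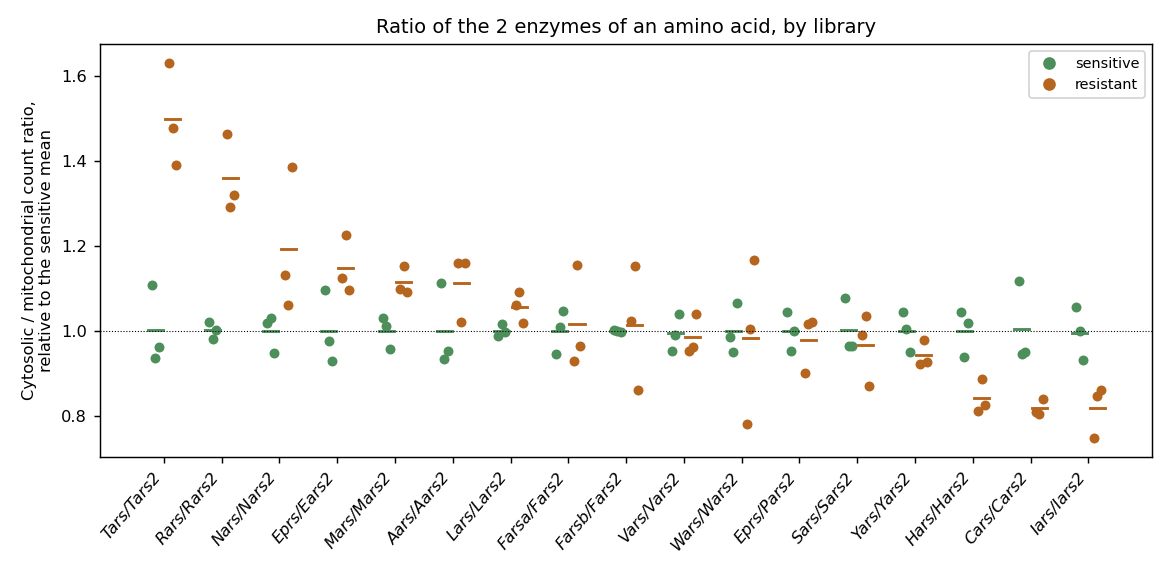
Ratio of cytosolic to mitochondrial counts for 17 of the 18 pairs, relative to the mean of the sensitive libraries (y axis); points are libraries and short lines group means. Tars/Tars2 and Rars/Rars2 are highest in resistant libraries, and Iars/Iars2 is among the lowest.

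A further threonine gene, Tarsl2, encodes a cytosolic paralog of Tars. It was at 30.8, 30.4 and 30.7 CPM in sensitive and 17.4, 20.7 and 18 CPM in resistant libraries, without overlap. Tarsl2 fell 1.64-fold (log2 fold change -0.71 ± 0.09, edgeR adjusted p = 0.000118), a larger change than that of any gene in the family.

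The genes that finish or check charging were followed as lists. Of the 4 genes of editing and quality control (Aarsd1, Prorsd1, Dtd1 and Dtd2) 0 passed, with edgeR adjusted p from 0.276 to 0.949. Of 4 genes that complete glutaminyl and formylmethionyl tRNA in mitochondria, Qrsl1, the amidotransferase subunit that works on the product of Ears2, was higher (0.30 ± 0.09) and so was the formyltransferase gene Mtfmt (0.28 ± 0.09). Another subunit gene, Gatb, was lower (-0.22 ± 0.07) and Gatc did not pass (-0.05). Of these 4 genes 75% were called, against 39.2% of all genes tested. Calls were lost in 3 of 14 alternatives for Qrsl1 (edgeR adjusted p without sensitive library 1, 0.0813, or 2, 0.0537, or resistant library 1, 0.0781) and in 5 for Mtfmt (library totals, 0.0539; without sensitive library 1, 0.0881, 2, 0.0703, or 3, 0.0587, or resistant library 1, 0.0928). That of Gatb was lost in 7, among them the fits without sensitive library 1 (0.0697), 2 (0.127) or 3 (0.067) and without resistant library 1 (0.0546) or 3 (0.0903). Of 6 genes of the selenocysteine pathway, which begins with serine charged by Sars, 4 were higher, 1 lower and 1 did not pass. The lower gene was Sephs1 (-0.17 ± 0.06, edgeR adjusted p = 0.0332), whose call was not followed over the alternative fits. The share called was 83.3% of these 6, against 39.2% of all genes tested. The higher ones included Sephs2, which makes the selenium donor (0.28 ± 0.05), and Secisbp2, which binds the selenocysteine insertion element (0.26 ± 0.06). Another was Sepsecs, which forms the charged selenocysteine tRNA (0.22 ± 0.06). The call of Sepsecs was lost without sensitive library 2 (edgeR adjusted p = 0.0535) or 3 (0.0657).

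Among 24 genes of tRNA processing and export 8 were higher, 2 lower and 14 did not pass, with a median of 0.06. The share called, 41.7%, was near the 39.2% of all genes tested. Elac2, which trims tRNA 3′ ends, rose by 0.35 ± 0.06, the RNase P subunit gene Rpp40 by 0.34 ± 0.08, and the tRNA ligase gene Rtcb by 0.32 ± 0.06. RNA polymerase III transcribes tRNA genes. Of 21 genes of this polymerase and its factors, 5 were higher, 1 lower and 15 did not pass (28.6% called), with a median of -0.00. Among the higher genes was Maf1, which encodes a repressor of the polymerase (0.21 ± 0.07, edgeR adjusted p = 0.0422). Polr3g, a subunit known from stem cells, was at 18.3, 18.9 and 18.3 CPM in sensitive and 31.4, 28.8 and 30.8 CPM in resistant libraries. It rose 1.64-fold without overlap (0.71 ± 0.08, edgeR adjusted p = 5.37e-05). Its alternative subunit Polr3gl was the lower gene of the list (-0.30 ± 0.08, edgeR adjusted p = 0.0158). The calls of Maf1 and Polr3gl were not followed over the alternative fits. Crcp (0.29 ± 0.07) and Polr3e (0.20 ± 0.05), which encode other polymerase III subunits, rose. The call of Polr3e was lost without sensitive library 2 (edgeR adjusted p = 0.0527) or 3 (0.0538).

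Elongation factors deliver charged tRNA and move the ribosome. Of 6 tested cytosolic ones 4 were higher and 2 did not pass (66.7% called, against 39.2% of all genes tested), with a median of 0.17. Eef2, the translocase gene, was at 3080, 3000 and 3080 CPM in sensitive and 3550, 3610 and 3890 CPM in resistant libraries and rose by 0.27 ± 0.05 (edgeR adjusted p = 0.00115). Eif5a and Eef1b2 rose by 0.20 ± 0.05 each; the call of Eif5a was lost without sensitive library 2 (edgeR adjusted p = 0.0504). Of 4 mitochondrial factors, Gfm1 was higher (0.30 ± 0.06) and 3 did not pass (25% called).

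**Figure D5:**
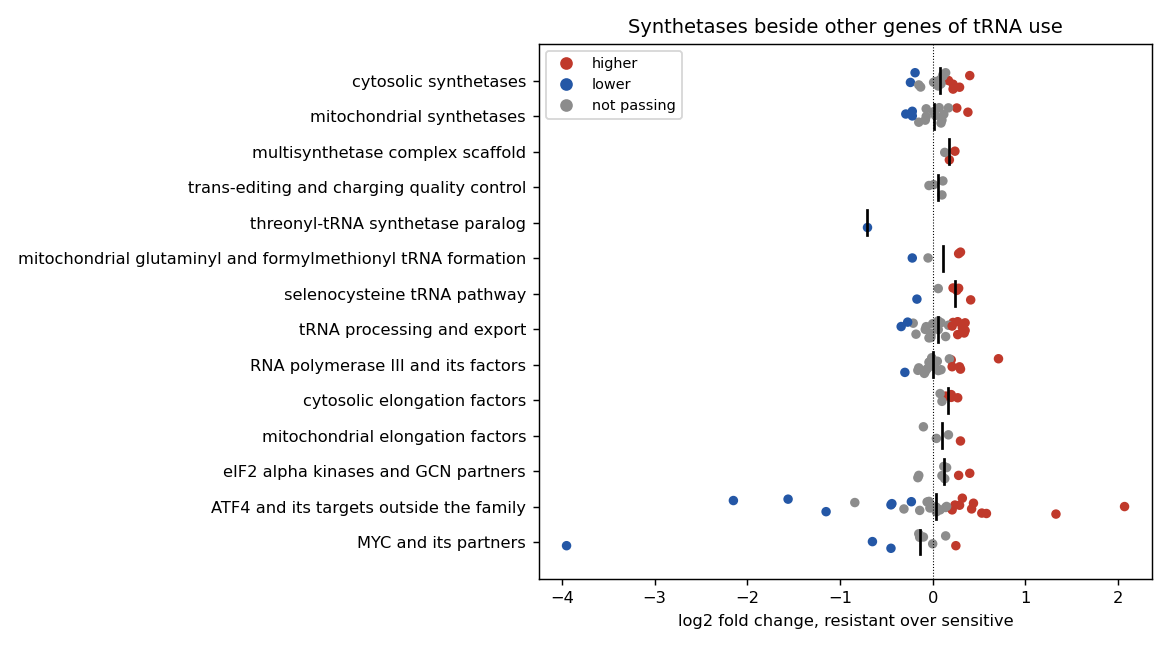
Log2 fold change (x axis, resistant over sensitive) of the tested genes in the synthetase sets (36 of 37 members drawn) and the pathway lists, with the median of each list as a black bar. The synthetase genes drawn lie within -0.29 to 0.40, while the ATF4 list spans -2.15 to 2.07 and the MYC list reaches -3.95.

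Uncharged tRNA is sensed by the kinase GCN2 (Eif2ak4), which leads to translation of ATF4. Of 8 genes of the eIF2 alpha kinases and GCN partners 2 were higher and 6 did not pass (25% called, against 39.2% of all genes tested). The higher ones were Eif2ak2 (0.28 ± 0.08) and Impact (0.40 ± 0.12), an inhibitor of GCN2. Eif2ak4 itself had -0.15 ± 0.09 (edgeR adjusted p = 0.198). The call of Eif2ak2 was lost without sensitive library 3 (edgeR adjusted p = 0.0772). That of Impact was lost without sensitive library 1 (0.0529), 2 (0.0742) or 3 (0.0572) or resistant library 1 (0.0725) or 3 (0.0512). Atf4 mRNA was at 230, 223 and 233 CPM in sensitive and 206, 237 and 228 CPM in resistant libraries, overlapping (-0.03 ± 0.06, edgeR adjusted p = 0.709). Atf4 is controlled largely at translation, which these data do not measure. Of 28 tested genes in the list of ATF4 and its targets outside the family, 10 were higher, 6 lower and 12 did not pass, with a median of 0.04. The share called was 57.1% in this list and 39.2% over all genes tested.

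In that list 6 of 28 tested genes differed by more than 1.5-fold, against 18% of all genes tested. The 3 with the smallest adjusted p were Stc2, Cebpg and Pycr1. Stc2, a secreted glycoprotein gene, was at 2.55, 2.55 and 2.12 CPM in sensitive and 9.9, 11.9 and 8.5 CPM in resistant libraries and rose 4.19-fold (edgeR adjusted p = 6.91e-06). Cebpg, whose product pairs with ATF4, was at 54.8, 48.2 and 43.4 CPM against 19.1, 18.8 and 11.7 CPM and fell 2.94-fold (4.41e-05). Pycr1, a proline synthesis enzyme gene, fell 2.21-fold (edgeR adjusted p = 0.000449). None of these overlapped between groups.

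Myc was at 151, 147 and 146 CPM in sensitive and 133, 166 and 115 CPM in resistant libraries, the resistant values spreading to both sides of the sensitive ones (-0.10 ± 0.11, edgeR adjusted p = 0.469). Without resistant library 2, the highest of its group, Myc passed as lower (Myc log2 fold change -0.25, edgeR adjusted p = 0.0219). Of 9 tested genes of MYC and its partners 1 was higher, 3 lower and 5 did not pass (44.4% called, against 39.2% of all genes tested). The lower ones were Mycl, Mxd1 and Mxd3. Mycl (-3.95 ± 0.34), a MYC family gene, had 3.89, 2.75 and 2.82 CPM in sensitive and 0.221, 0.091 and 0.273 CPM in resistant libraries. Mxd1 (-0.65 ± 0.08) and Mxd3 (-0.45 ± 0.10) are MAX dimerization genes. Their products bind MAX in place of MYC, so these genes are listed for MAX and are not partners of MYC itself.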

How the data were processed

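The authors deposited whole-number counts per Ensembl gene, 1 column per library, with no normalization apparent in the values. Per the submitters' processing notes, TopHat2, RSEM and the build mm9 were used, without versions or roles; for annotation, strand setting and shared reads the handling is not given in the sources used here. Genes with low counts were removed by filterByExpr, libraries scaled by TMM (factors 0.9784 to 1.0164) and tested with edgeR 4.0.16 (R 4.3.3; glmQLFit and glmQLFTest, group alone) over 13414 genes, with Benjamini-Hochberg adjustment and a threshold of 0.05. A floor of 3 counts was 0.0945 to 0.137 CPM, covering counting error only. GENCODE M21, a later build, gave names, transcript lengths and exon overlaps (31636 of 35932 identifiers matched). Sequence shared with other genes was sought among GENCODE M21 transcripts with blastn, at 95% identity or more over 50 bases or more. Alternatives were other scalings, DESeq2 1.42.0, limma-voom (limma 3.58.1), other filters, a replicate block and each library left out. In 5 simulations with 200 of 13414 genes changed, the test found 81.2% of genes changed 2-fold, and 8.9% of its calls were false. Far more genes were called in the data, so these shares describe the simulations only. Pairs of libraries within a group differed beyond sampling noise (chi-square per degree of freedom 3.92 to 13.59). Members and lists were chosen with earlier results of these data known. All members are named except 1, which enters the counts and sums but is not reported here; library values are given for members past the test, the highest and lowest levels per length and those nearest the threshold, and up to 3 genes per list past the test with the smallest adjusted p are named. Other named list genes were chosen after their values were seen.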

Additional observations from a re-analysis of the deposited data

How the results depend on the processing

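Of the 13 synthetase genes past the test, 6 passed in all 14 alternative fits, and of the 24 that did not pass, 20 passed in none. Counts of cytosolic genes were 5 higher and 2 lower with TMM, RLE, upper quartile scaling, limma-voom, DESeq2 and the 1 CPM filter. Without a low-count filter 1 cytosolic gene was lower. Mitochondrial genes that were lower dropped from 4 to 2 with DESeq2 and to 2 without a low-count filter. Leaving out Lars2, chosen after seeing the data, kept 2 higher and 4 lower. Leaving out 1 library gave 3 to 6 higher and 1 to 2 lower cytosolic genes, 1 to 2 higher and 1 to 4 lower mitochondrial genes, and 1641 to 2521 higher and 2015 to 2711 lower genes overall; the lowest counts of all genes came without sensitive library 2. With library totals alone, 3 cytosolic genes were lower.

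Replicate numbers are shared between the groups, but same-numbered libraries did not deviate together (correlations 0.04, -0.01 and -0.09). With the replicate number as a block, 5 cytosolic genes were higher and 2 lower, 2 mitochondrial genes higher and 4 lower, and 2497 genes higher and 2824 lower overall.

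Signs turned only in genes near 0. With library totals these were Aars2 (-0.02), Hars (-0.02), Lars2 (-0.00) and Sars (-0.00). Over the fits without 1 library, the log2 fold change ran from -0.05 (without resistant library 2) to 0.07 for Aars2, from -0.01 (without resistant library 2) to 0.07 for Sars, from -0.07 to 0.02 (without resistant library 1) for Atf4 and from -0.25 to 0.02 (without resistant library 3) for Myc. Aars2 was at -0.04 without sensitive library 1, and Hars was at -0.01 without sensitive library 3. Among these genes only Myc passed in such a fit, as lower without resistant library 2 (Myc log2 fold change -0.25, edgeR adjusted p = 0.0219).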

Other observations

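Annotated exons of 11 of 37 synthetase genes overlap another gene of the count table, in each case on the opposite strand. The partners with at least 100 counts in a library were Hars with Hars2, Mars with Ddit3, Cars2 with Naxd, Ears2 with Ubfd1, Fars2 with Lyrm4 and Iars2 with Rab3gap2. Ddit3, which encodes the stress factor CHOP, shares 68 exon bases with Mars and had 119 to 179 counts per library; Ddit3 was at 0.04 ± 0.14 (edgeR adjusted p = 0.842). Naxd shares 422 exon bases with Cars2 and was at -0.18 ± 0.08 (0.0923, edgeR), against 0.10 for Cars2.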
